A study of Sus scrofa with 11 samples.

Results

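The interleukin genes and their receptor genes were read out in wounds of 1 diabetic and 1 non-diabetic Yucatan minipig. They were taken as every gene whose symbol begins with IL followed by a digit, which gave 79 of the 30376 genes in the deposited values. By their known roles they comprised 34 ligands, 34 signalling receptor subunits, 4 decoys or antagonists and 7 other genes that carry an interleukin name. Diabetes had been induced in the first minipig, a female, with intravenous streptozotocin, a toxin of the insulin-producing beta cells, and insulin was given during a maturation period and withdrawn before wounding. The second female minipig received no streptozotocin. Both received full-thickness punch wounds on the back, and the tissue was excised on day 10, with 7 diabetic and 4 non-diabetic wounds and 1 polyA RNA library for each. By the study's description each group came from 1 animal. The tests below therefore measure the spread between wounds of an animal, and diabetes and the individual animal cannot be told apart.

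Interleukins are secreted signals between immune cells and tissue cells. Most ligands are made on demand by activated macrophages, lymphocytes, fibroblasts or keratinocytes, while the receptors, built from ligand-specific chains and chains shared by several receptors, are carried by cells at rest as well. Some relatives oppose the signal: a decoy receptor binds the ligand without passing the signal on. In skin wounds the IL-1, IL-6 and IL-17 families are known for early inflammation, and the IL-20 group for signals to the epidermis.

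Depth was 28314785 to 40168372 reads on genes in the 7 diabetic libraries and 32961018 to 36872400 in the 4 non-diabetic ones. Keratinocyte markers summed to 75.3 FPKM (fragments scaled to gene length and library size) in diabetic replicate 4 and 380.1 FPKM in non-diabetic replicate 1, against 2624 to 8464 FPKM in the other 9 wounds. Skeletal muscle markers reached 1344 FPKM in diabetic replicate 3 and at most 0.210 FPKM elsewhere. Of the 12 macrophage markers 4 (MRC1, MARCO, CD14 and ITGAM) were called higher in diabetic wounds, and of the 6 B and plasma cell markers tested 4 were. The share called higher over all genes tested was 1.35%. Summed over all macrophage markers, called or not, levels were 760.8 to 1729 against 492.4 to 915.5 FPKM. The largest parts of that sum, C1QA, C1QB and C1QC, were not called. The B and plasma cell markers summed to 48.4 to 109.7 against 15.9 to 80.1 FPKM. In whole tissue, fewer cells of a type and less RNA per cell cannot be told apart.

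Of the 79 genes, 51 passed an expression filter (0.5 FPKM or more in 4 or more wounds) and were compared: 19 ligands, 27 receptors, the decoys IL1R2, IL18BP and IL13RA2, and the other genes IL17RD and IL4I1. On the FPKM scale, which is per gene length, the most abundant by mean over the 11 wounds was IL4R, the receptor chain for IL-4 and IL-13, at 30.7 FPKM. It was followed by IL13RA1, its partner chain for IL-13, at 27.8, IL11RA, the IL-11 receptor chain, at 25.6, IL6 at 23.5 and IL17RC, a chain of the IL-17A and IL-17F receptor, at 18.5 FPKM. Receptors thus held 4 of the first 5 places. The spread between wounds was wide enough that IL4R, IL13RA1, IL11RA and IL6 did not keep this order in every wound. IL4 itself, the ligand of IL4R, had 0 reads in every wound, and IL13 had at most 6 reads in a wound.

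The question put to these genes was whether they differed between diabetic and non-diabetic wounds, and whether ligands behaved like receptors. The values of each gene in each wound are drawn relative to the gene's own mean.

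**Figure D1:**
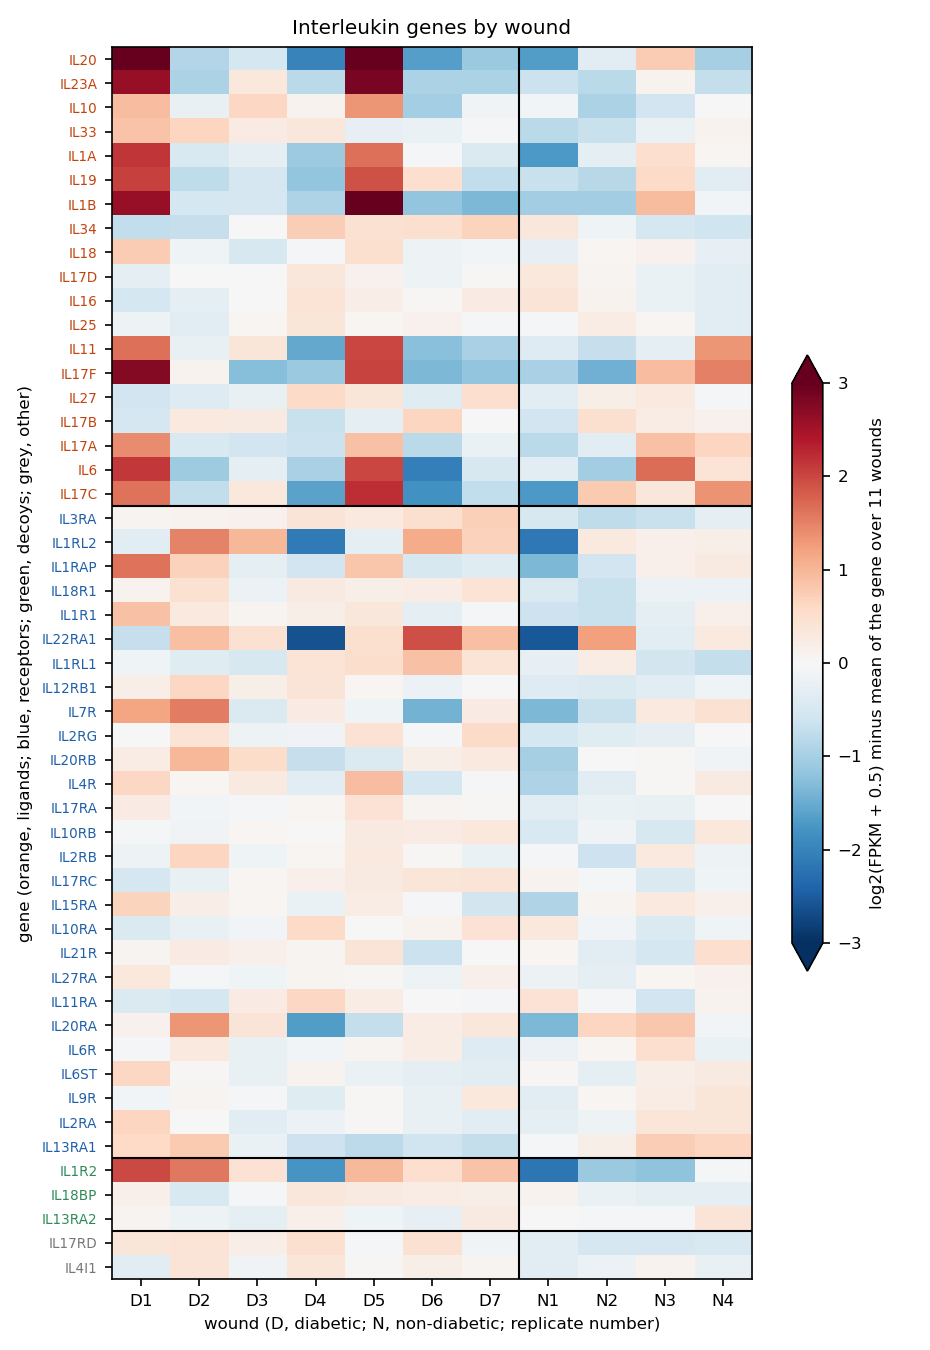
Level of the 51 interleukin genes (rows, grouped into ligands, receptors, decoys and other genes) in the 7 diabetic wounds (D1 to D7) and the 4 non-diabetic wounds (N1 to N4), as log2(FPKM + 0.5) minus the gene's mean over the 11 wounds. The strongest colours lie among the ligands in D1 and D5, and the rows of IL3RA and IL17RD are shifted between the groups with little change within them.

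IL3RA and IL17RD rose in diabetic wounds, and no interleukin gene was called lower. These 2 of 51 genes were called (limma, with an adjusted p under 0.05 and a change of over 0.5 on the log2 scale in either direction), beside 3.00% of all 13956 genes tested, of which 1.35% were called higher and 1.66% lower. At an unadjusted p under 0.05 the number was 9 of 51, beside 18.4% of all genes, and 1 of the 9, IL12RB1, had passed the filter through diabetic wounds only. The groups did not overlap in the same 2 of 51 genes, beside 5.65% of all genes. The log2 fold change was positive in 38 of the 51, beside 52.3% of all genes, and its median was 0.24, against 0.01 for all genes tested. The shares of called genes, of genes at the unadjusted threshold and of separate groups were thus near the background.

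**Figure D2:**
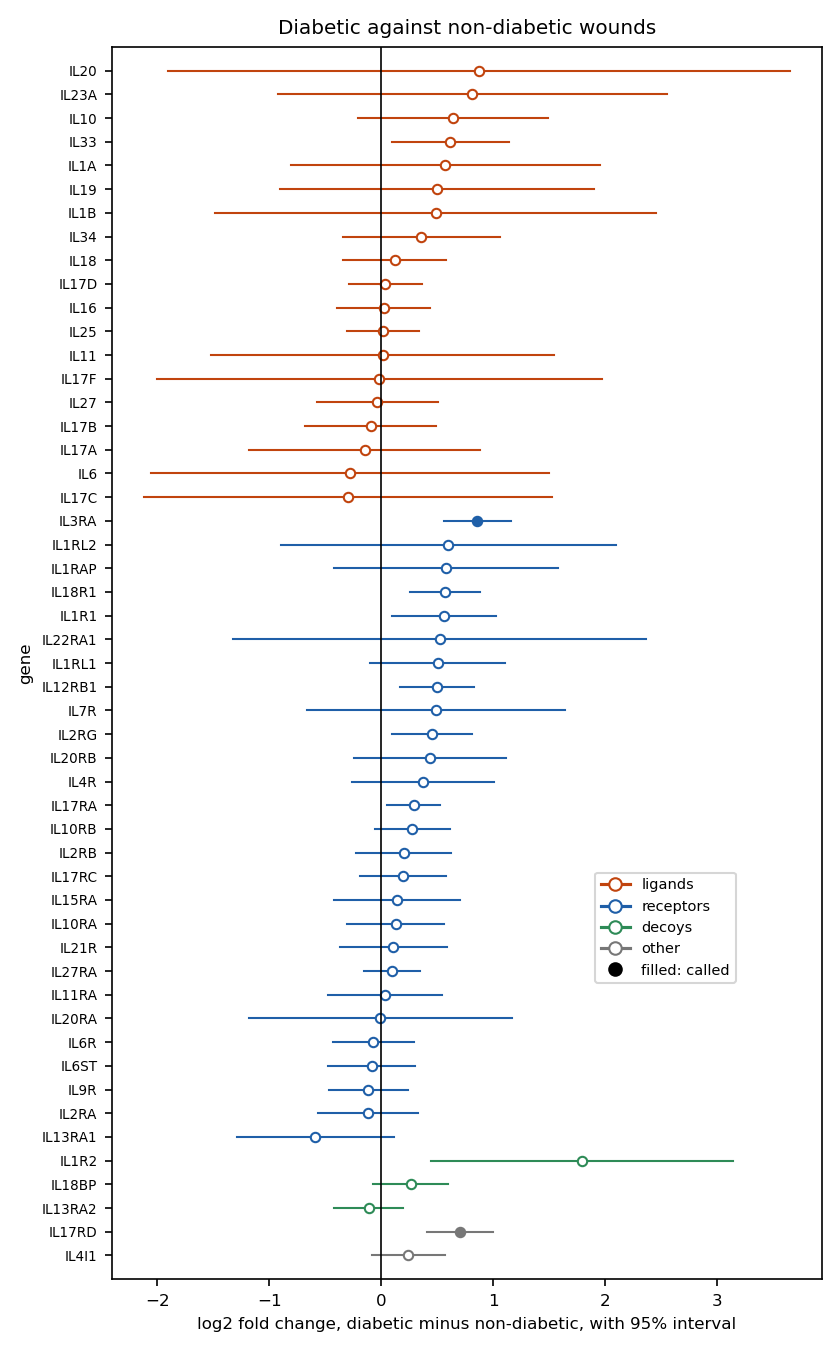
Log2 fold change of the 51 interleukin genes between diabetic and non-diabetic wounds (points) with the 95% interval of limma (lines), coloured by role. Filled points are the called genes IL3RA and IL17RD, and many ligands such as IL20 and IL6 have intervals several log2 units wide.

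Ligands spread more widely between diabetic wounds than receptors did. The 19 ligands had a median log2 fold change of 0.04, from -0.30 for IL17C to 0.87 for IL20, with 13 positive and 6 negative and 0 called by limma (1 at an unadjusted p under 0.05). The 27 receptors had a median of 0.28, from -0.59 for IL13RA1 to 0.86 for IL3RA, with 21 positive and 6 negative and 1 called (6 at an unadjusted p under 0.05). Of these 6, IL12RB1 had passed the filter through diabetic wounds only. Within the diabetic group the standard deviation of log2(FPKM + 0.5) had a median of 0.86 over the ligands and 0.34 over the receptors, against 0.26 over all genes tested. Within the non-diabetic group the medians lay closer together, at 0.45 and 0.37, against 0.21 over all genes. In the diabetic group the standard deviation exceeded 1 in 9 of 19 ligands and 2 of 27 receptors, beside 3.83% of all genes. The difference in spread was not tested. The medians of the log2 fold changes moved with single wounds: without 1 wound that of the ligands ran from 0.009 to 0.23 and that of the receptors from 0.18 to 0.35, and without diabetic replicates 1 and 5 they were -0.11 and 0.20.

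**Figure D3:**
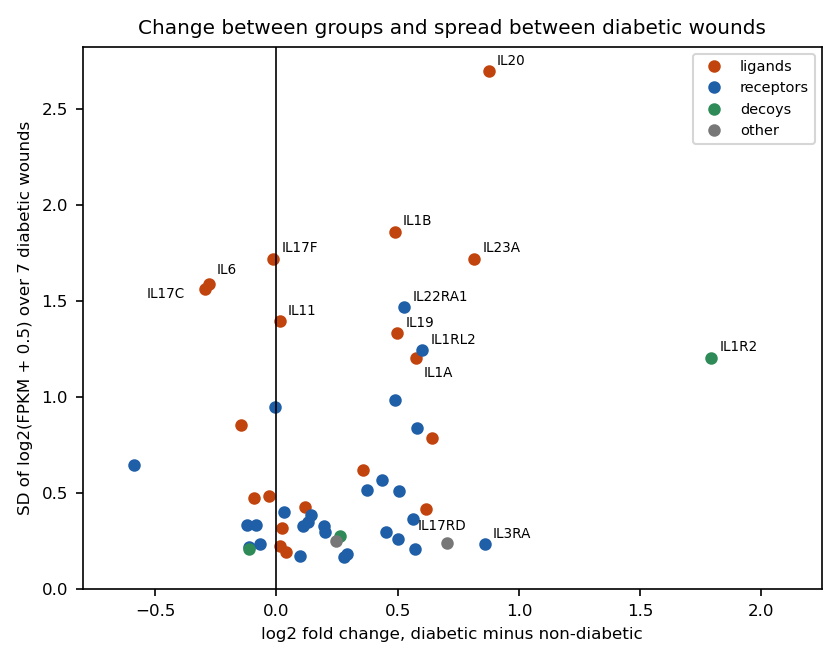
Log2 fold change between the groups (horizontal axis) against the standard deviation of log2(FPKM + 0.5) over the 7 diabetic wounds (vertical axis) for the 51 interleukin genes, coloured by role. Ligands such as IL20 (2.70) and IL1B (1.86) lie high on the spread axis, while the called genes IL3RA and IL17RD lie at 0.23 and 0.24.

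IL3RA encodes the alpha chain of the IL-3 receptor, which is known from basophils, plasmacytoid dendritic cells, other myeloid cells and endothelium. It measured 13.8 FPKM in the lowest, 16.1 in the median and 21.7 in the highest diabetic wound, and 9.24, 7.55, 8.11 and 10.6 FPKM in non-diabetic replicates 1 to 4. Every diabetic wound thus lay above every non-diabetic one. The means were 16.6 ± 2.87 FPKM (SD, n = 7) and 8.88 ± 1.35 FPKM (SD, n = 4), a log2 fold change of 0.86 with a standard error of 0.14 (limma-adjusted p = 0.00644). The call was kept when any single wound was left out, with a log2 fold change of 0.79 to 0.94. Of the 12 macrophage markers described above 4 were called higher in the same group, beside 1.35% of all genes tested, with overlapping summed levels. Of the 8 endothelial markers 0 were called (limma, summed level 240.2 to 306.0 FPKM with diabetes against 234.7 to 299.0 FPKM). What part these cell types had in the level of IL3RA was not tested.

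IL3RA lies on an unplaced scaffold of Sscrofa11.1 from 775386 to 791980, plus strand, and the annotation in the deposited values types it as a long non-coding RNA although it is described as the receptor subunit. On that scaffold, 31.7 kb before IL3RA, lies CSF2RA, the alpha chain of the GM-CSF receptor, which rose too. CSF2RA measured 7.37 to 14.8 FPKM with diabetes and 3.64 to 5.53 FPKM without (log2 fold change 1.18 with a standard error of 0.23, limma-adjusted p = 0.0182). A second gene described as a GM-CSF receptor alpha subunit, LOC102161330, lies between them and measured 0.497 to 1.19 FPKM with diabetes and 0.169 to 0.363 FPKM without. Reads of CSF2RA and of that second copy could have been split between them, so both values are uncertain. LOC102161330 reached 0.5 FPKM in diabetic wounds only, so that its difference is given without a test. The long non-coding RNA gene LOC110258199, 16.1 kb beyond IL3RA, had 0 to 0.874 FPKM with diabetes and 1.36 to 2.59 FPKM without. LOC110258199 reached 0.5 FPKM in 4 non-diabetic and 2 diabetic wounds and would not have passed the filter by the diabetic wounds alone. Its difference is also given without a test. The nearest neighbour, SLC25A6, a mitochondrial ADP/ATP carrier 1.00 kb away on the other strand, had a log2 fold change of 0.30 (limma-adjusted p = 0.221) and was not called. The beta chain shared by the IL-3 and GM-CSF receptors, CSF2RB, had 18.8 ± 4.11 and 14.4 ± 3.30 FPKM (log2 fold change 0.37, limma-adjusted p = 0.292).

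IL17RD is related to the IL-17 receptors and is also known as an inhibitor of FGF receptor signalling. It lies on chromosome 13 from 38935631 to 39006721. Its levels were low, with 1.36 FPKM in the lowest, 2.05 in the median and 2.28 in the highest diabetic wound, and 1.10, 0.916, 0.904 and 0.947 FPKM in the 4 non-diabetic wounds. The groups did not overlap, and the non-diabetic wounds were close to each other. The log2 fold change was 0.70 with a standard error of 0.13 (limma-adjusted p = 0.0171). It did not pass the threshold when non-diabetic replicate 2, 3 or 4 was left out (adjusted p = 0.0536, 0.0581 and 0.0523, limma), with the log2 fold change between 0.68 and 0.70. None of the 3 tested genes within 100 kb of IL17RD was called (limma, 0 of them also at an unadjusted p under 0.05).

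**Figure D4:**
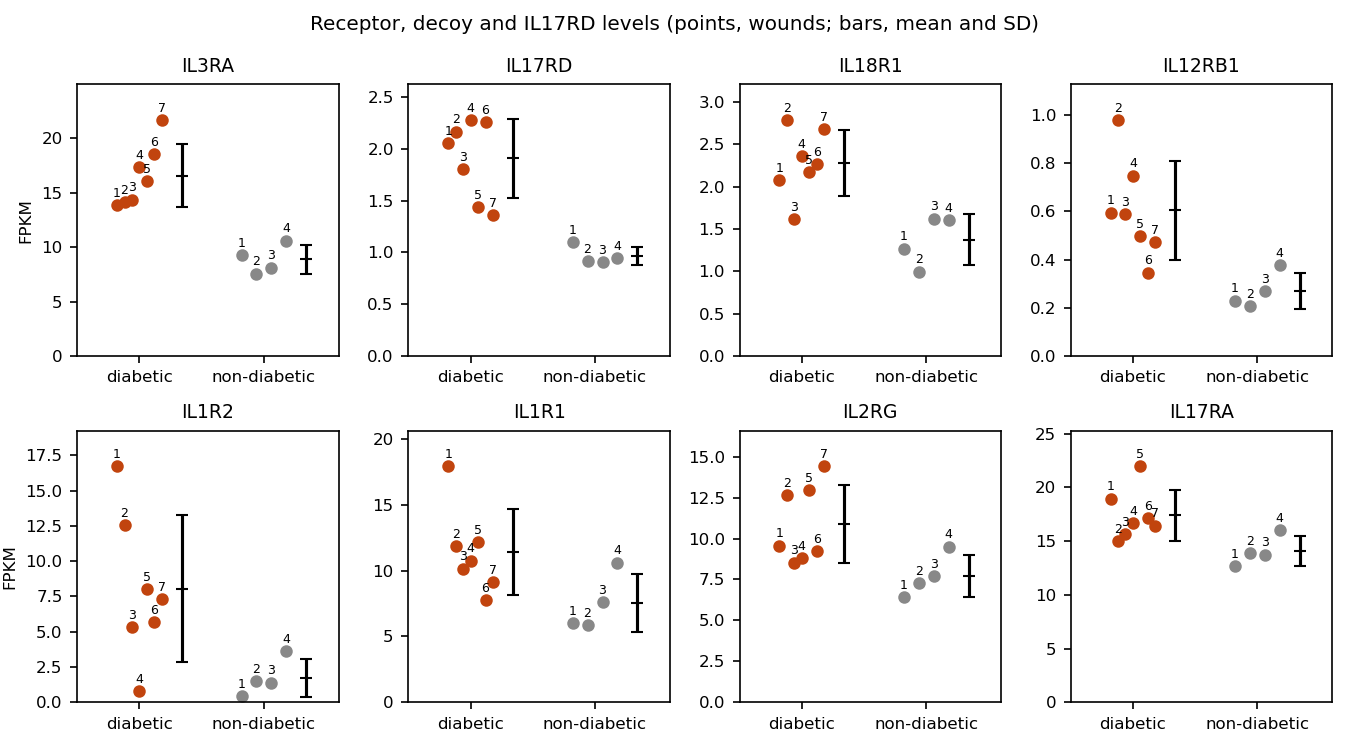
FPKM of 6 receptors, the decoy IL1R2 and IL17RD in each diabetic (orange) and non-diabetic (grey) wound, numbered by replicate, with the mean and standard deviation as black bars. The groups separate for IL3RA and IL17RD, touch or overlap slightly for IL18R1 and IL12RB1, and IL1R2 is low in diabetic replicate 4.

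Of the genes that were not called, IL18R1 of the IL-1 receptor family had the lowest p-value. A stretch of 644.3 kb on chromosome 3, from 51762111 to 52406393, holds 6 of them in a row: IL18RAP, IL18R1, IL1RL1, IL1RL2, IL1R1 and IL1R2. The 5 that were tested had log2 fold changes of 0.50 to 1.79, all positive, and none was called (limma; IL18R1, IL1R1 and IL1R2 had an unadjusted p under 0.05). IL18R1, the ligand-binding chain of the IL-18 receptor, measured 1.61 FPKM in the lowest, 2.26 in the median and 2.79 in the highest diabetic wound, against 1.27, 0.997, 1.62 and 1.61 FPKM. Diabetic replicate 3 alone lay within the non-diabetic range. Its log2 fold change of 0.57 (standard error 0.14) missed the threshold narrowly, with an adjusted p = 0.0508 (limma), and passed it without diabetic replicate 3 (0.63, adjusted p = 0.0352).

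IL1R1, the signalling receptor of IL-1 alpha and IL-1 beta, had 7.77, 10.8 and 17.9 FPKM in the lowest, median and highest diabetic wound and 6.01, 5.85, 7.61 and 10.6 FPKM in the non-diabetic wounds. The groups overlapped, and the log2 fold change was 0.56 (limma-adjusted p = 0.180). IL1RAP, the accessory chain that completes this and the IL-33 and IL-36 receptors, lies on chromosome 13 and had 3.40 ± 2.56 and 1.95 ± 1.11 FPKM (log2 fold change 0.58, limma-adjusted p = 0.552). IL1RL1, the IL-33 receptor, had 0.947 ± 0.496 and 0.499 ± 0.296 FPKM (log2 fold change 0.50, limma-adjusted p = 0.368). Both genes were spread widely between wounds of a group.

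IL1R2 is the decoy that binds IL-1 without signalling, and its estimated change was the largest of the 51 genes. It measured 16.7, 12.5, 5.31, 0.776, 8.04, 5.68 and 7.29 FPKM in diabetic replicates 1 to 7 and 0.459, 1.50, 1.39 and 3.63 FPKM in non-diabetic replicates 1 to 4. Diabetic replicate 4 was the only diabetic wound within the non-diabetic range, and in each group the lowest wound was the one poor in keratinocyte markers. The log2 fold change was 1.79 (standard error 0.62, 95% interval 0.45 to 3.14, limma-adjusted p = 0.141). The paper tested counts of these wounds with DESeq2 instead. It names IL1R2 among the genes of a haematopoietic lineage pathway that was enriched with diabetes. The paper describes its pathway genes as differentially expressed, so the absence of a call for IL1R2 here differs from its result. Without diabetic replicate 4 the log2 fold change was 2.196 (limma-adjusted p = 0.0180), and without that wound and non-diabetic replicate 1 it was 1.85 (adjusted p = 0.0411). With the keratinocyte level as a covariate it was 1.52 (limma-adjusted p = 0.0364). These 3 alternatives passed the threshold, and under the other 24 of 27 IL1R2 was not called (limma-adjusted p up to 0.732).

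Set against its signalling counterpart within each wound, the log2 ratio of IL1R2 to IL1R1 averaged -0.76 ± 1.09 (SD, n = 7) in diabetic and -1.99 ± 0.59 (SD, n = 4) in non-diabetic wounds. The difference of 1.23 did not pass a two-sided exact permutation test over 330 splits (p = 0.0758, adjusted over 3 ratios p = 0.227). Without diabetic replicate 4 the difference was 1.63 and its adjusted exact p = 0.0143. That wound had the only diabetic ratio below the highest non-diabetic one (-3.14 against -1.42), so the groups separate without it. The exact p is then the smallest that the test can give. The difference passed under 2 of 15 alternatives. The log2 ratio of IL18BP, a secreted protein that captures IL-18, to IL18 differed by 0.14 (exact permutation p = 0.561). That of IL13RA2, a decoy for IL-13, to IL13RA1 differed by 0.48 (exact permutation p = 0.236). IL18BP itself had 7.31 ± 1.32 and 5.95 ± 0.876 FPKM (log2 fold change 0.26, limma-adjusted p = 0.394), and IL13RA2 0.906 ± 0.209 and 1.02 ± 0.244 FPKM (log2 fold change -0.11, limma-adjusted p = 0.730). The antagonist IL1RN and the IL-36 genes were not analysed here.

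The IL-1 ligands had log2 fold changes near those of IL1R1 and IL1RAP with a wider spread between wounds. IL1A and IL1B, which encode IL-1 alpha and IL-1 beta, lie 61.5 kb end to end on chromosome 3. IL1B measured 12.3 and 17.3 FPKM in diabetic replicates 1 and 5, 0.320 to 0.950 FPKM in the other 5 diabetic wounds, and 0.499, 0.501, 3.49 and 1.45 FPKM in the non-diabetic wounds. The first pair lay far above all others, and the rest of the diabetic wounds lay within or just below the non-diabetic range. Its log2 fold change was 0.49 with a standard error of 0.90 (limma-adjusted p = 0.828) and its interval ran from -1.48 to 2.46. IL1A measured 19.5 and 13.6 FPKM in the same pair and 0.866 to 5.87 FPKM in the other 9 wounds (log2 fold change 0.57, limma-adjusted p = 0.686).

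The pig genome holds near copies of IL1B, which bear on how its reads could be counted. IL1B at chr3:43670126-43677125 received 2415 reads over the 11 wounds, 15 to 1026 per wound, while IL1B2 on an unplaced scaffold received 0 and 12 further genes described as IL-1 beta, each on an unplaced scaffold, received 0 to 2 in all. In the 4 of 6 coding exons of equal length, IL1B and IL1B2 differed at 14 of 443 bases (96.8% identical). Coding exon 6, which is printed for both because it is the longest of the 4, differed at 3 of 213 bases and contained 165 identical bases in a row. It lies at chr3:43676312-43676524 for IL1B. Capitals mark the bases that differ (RefSeq annotation and sequence of Sscrofa11.1, plus strand, 5′ to 3′).

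IL1B coding exon 6: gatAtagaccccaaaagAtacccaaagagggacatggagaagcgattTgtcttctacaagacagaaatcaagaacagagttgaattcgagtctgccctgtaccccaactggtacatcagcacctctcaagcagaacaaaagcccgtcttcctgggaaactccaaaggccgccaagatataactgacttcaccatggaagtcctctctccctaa

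IL1B2 coding exon 6: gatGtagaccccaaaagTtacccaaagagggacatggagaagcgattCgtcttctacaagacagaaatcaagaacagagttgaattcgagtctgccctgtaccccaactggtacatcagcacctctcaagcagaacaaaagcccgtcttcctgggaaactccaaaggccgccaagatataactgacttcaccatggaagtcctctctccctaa

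A fragment from such a stretch cannot be assigned to 1 copy by its sequence, so the level of IL1B is uncertain in absolute terms. How the authors treated fragments with several matches is not given in the sources used here.

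IL18 and IL33 were the steadier ligands of the family. IL18, on chromosome 9, had 10.9, 14.6 and 26.8 FPKM in the lowest, median and highest diabetic wound and 12.9, 16.1, 17.2 and 13.1 FPKM in the non-diabetic wounds (log2 fold change 0.12, limma-adjusted p = 0.821). IL33, an alarm signal released by damaged barrier cells, had 6.65, 9.52 and 14.8 FPKM against 4.39, 4.83, 6.92 and 8.57 FPKM. It was the only ligand with an unadjusted p under 0.05, and its log2 fold change of 0.62 (standard error 0.24) did not pass after adjustment (limma-adjusted p = 0.192).

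The pattern of IL1B and IL1A recurred across the ligands. Diabetic replicates 1 and 5 were the 2 highest of all 11 wounds in 12 of the 19 ligands (IL1A, IL1B, IL6, IL10, IL11, IL17A, IL17C, IL17F, IL18, IL19, IL20 and IL23A) and in 4 of the 27 receptors (IL1R1, IL1RAP, IL4R and IL17RA), beside 4.74% of all genes tested. These wounds were picked out after the values had been seen, so the count is a description. Of the 100 marker genes with reads in the 10 cell type lists, 4 had these wounds as their 2 highest: the neutrophil markers CXCR2 (2.32 and 2.75 FPKM in diabetic replicates 1 and 5) and TREM1 (2.07 and 5.79 FPKM), and the keratinocyte markers ITGB4 and SFN. The other 9 neutrophil markers did not rank this way. CSF3R was highest in diabetic replicate 5 (11.06 FPKM), but non-diabetic replicate 4 (9.01 FPKM) lay above diabetic replicate 1 (6.11 FPKM). MMP9 was highest in non-diabetic replicate 2 (50.5 FPKM), and MPO and FCGR1A in non-diabetic replicate 4 (0.718 and 3.87 FPKM). Summed over a list, these wounds were the 2 highest in 0 of the 10 lists. Of their neutrophil sum, 99.4% and 99.5% came from S100A8, S100A9 and S100A12. These genes were low in the wounds poor in keratinocyte markers. With the S100 genes left out, the pair had neutrophil sums of 46.45 and 35.85 FPKM. Non-diabetic replicates 2 and 4 (59.78 and 58.55) and diabetic replicate 2 (52.38) lay above both. MMP9 was the largest part of each of these sums. The remaining wounds lay below diabetic replicate 1. The part of neutrophils in the ligand levels was not tested.

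**Figure D5:**
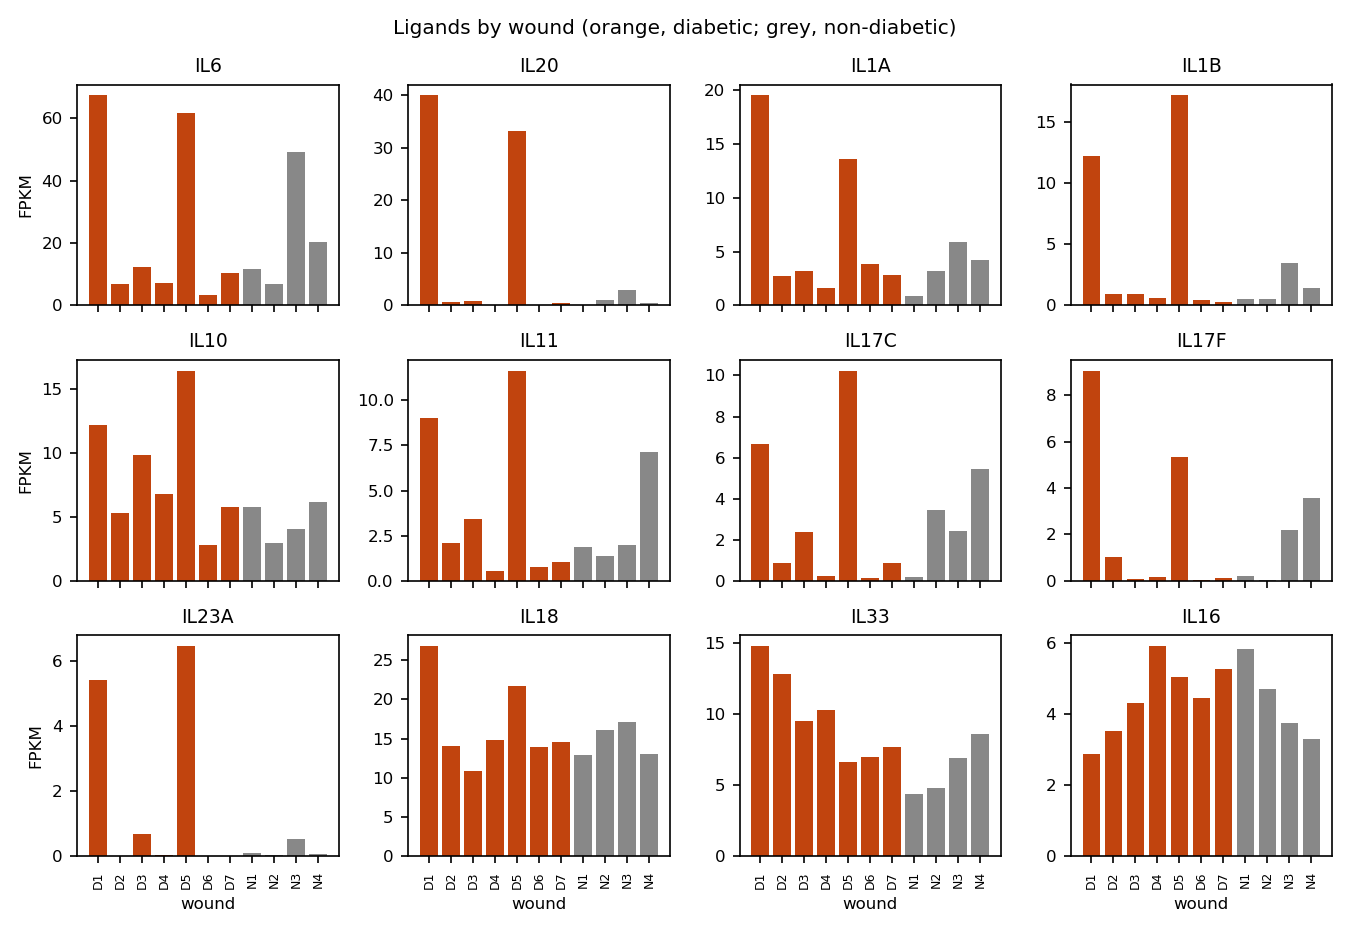
FPKM of 12 interleukin ligands in each diabetic (orange, D1 to D7) and non-diabetic (grey, N1 to N4) wound, each panel with its own axis from 0. D1 and D5 tower over the other diabetic wounds for IL20, IL1B and IL23A, while IL33 and IL16 do not follow this pattern.

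IL6, the ligand of the IL-6 receptor and a strong inducer of acute inflammation, showed the pattern at the highest level. It measured 67.5, 6.90, 12.5, 7.35, 61.8, 3.25 and 10.5 FPKM in diabetic replicates 1 to 7 and 11.7, 7.03, 49.3 and 20.2 FPKM in non-diabetic replicates 1 to 4. Non-diabetic replicate 3 came near the high diabetic pair, and the other 5 diabetic wounds overlapped with the remaining non-diabetic ones. The mean FPKM was thus slightly higher in diabetic wounds (24.3 against 22.1), while the log2 fold change was negative, -0.28 with a standard error of 0.81 (limma-adjusted p = 0.898). Neither direction was larger than the spread between wounds.

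IL20, a signal to keratinocytes, had the widest spread of the 51 genes over the diabetic wounds. It reached 40.0 and 33.1 FPKM in diabetic replicates 1 and 5, 0.591, 0.903, 0, 0.139 and 0.424 FPKM in diabetic replicates 2, 3, 4, 6 and 7, and 0.127, 1.12, 2.88 and 0.514 FPKM in the non-diabetic wounds. Its mean was 10.7 FPKM with diabetes and 1.16 FPKM without, its median 0.591 and 0.815 FPKM, so that mean and median pointed in opposite directions. The log2 fold change was 0.87 with a standard error of 1.27 (limma-adjusted p = 0.774), and without diabetic replicates 1 and 5 it was -0.68 (adjusted p = 0.488). IL1B also changed sign without that pair, to -0.59 (adjusted p = 0.480).

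IL20 belongs to a cluster of IL-10 family genes on chromosome 9, from 67400727 to 67532407, with IL10, IL19 and IL24. IL10, a brake on macrophage activation, was highest in diabetic replicates 5 and 1 (16.4 and 12.2 FPKM) and ranged from 2.82 to 9.80 FPKM in the other diabetic wounds and from 2.97 to 6.13 FPKM without diabetes (log2 fold change 0.64, limma-adjusted p = 0.418). IL19 measured 4.53 and 4.01 FPKM in that pair and at most 1.29 FPKM elsewhere. All 3 tested genes of the cluster thus shared the same highest wounds. IL24 stayed below the filter and had between 0 and 59 reads.

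The sequences before the starts of IL6 and IL20 are printed because these ligands reached the highest levels in the high pair of wounds. Each window holds the 250 bases before the annotated gene start on the plus strand (RefSeq, Sscrofa11.1), at chr9:91506171-91506420 for IL6 and chr9:67498538-67498787 for IL20. Capitals mark matches, on either strand, to simplified motifs of NF-kB (GGGANNNNCC), AP-1 (TGANTCA), STAT (TTCNNNGAA) and C/EBP (TTNNGCAAT).

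IL6 promoter: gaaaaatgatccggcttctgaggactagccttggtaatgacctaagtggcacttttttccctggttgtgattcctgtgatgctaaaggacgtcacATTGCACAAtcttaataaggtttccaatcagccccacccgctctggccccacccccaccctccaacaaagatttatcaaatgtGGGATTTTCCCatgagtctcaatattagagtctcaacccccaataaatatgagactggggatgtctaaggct

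IL20 promoter: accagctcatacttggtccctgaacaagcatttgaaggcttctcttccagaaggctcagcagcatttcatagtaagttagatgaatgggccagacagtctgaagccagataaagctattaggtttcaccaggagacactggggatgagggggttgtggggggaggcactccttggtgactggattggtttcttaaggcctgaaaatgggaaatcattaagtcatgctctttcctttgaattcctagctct

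The IL6 window held GGGATTTTCC, 72 to 63 bases before the start, overlapping by all but 1 base with a match of the same motif on the other strand, and ATTGCACAA, the C/EBP motif on the other strand, 155 to 147 bases before it. The IL20 window held no match to these letters, and neither did that of IL1B, IL17F, IL17RD or IL1R2. The window of IL3RA held 1 match, to the NF-kB motif (GGGAATGGCC, 56 to 47 bases before the start). Matches were common: the NF-kB motif stood in 25.9% of 20657 windows of protein-coding genes and of the interleukin genes, in 8 of the 19 ligands and 15 of the 27 receptors tested. The AP-1, STAT and C/EBP motifs stood in 5.47%, 6.37% and 1.80% of all windows. In that order they stood in 4, 1 and 2 of the 19 ligands and in 2, 2 and 0 of the 27 receptors. A match is a description of letters and not evidence of binding.

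The IL-17 family was split by the same wounds. IL17F, a lymphocyte ligand that acts on epithelium, measured 9.06 and 5.31 FPKM in diabetic replicates 1 and 5, 0.0620 to 1.02 FPKM in the other diabetic wounds, and 0.228, 0.0256, 2.18 and 3.58 FPKM in the non-diabetic wounds (log2 fold change -0.02 with a standard error of 0.91). IL17C, an epithelial ligand, measured 6.68 and 10.2 FPKM in that pair, 0.153 to 2.38 FPKM in the others and 0.197, 3.47, 2.43 and 5.42 FPKM in the non-diabetic wounds (log2 fold change -0.30, limma-adjusted p = 0.894). In both genes the 5 lower diabetic wounds overlapped with the lower non-diabetic wounds. IL17B and IL17D, which are made by tissue cells, did not follow this pattern and spanned 1.50 to 4.48 and 0.633 to 1.26 FPKM over the 11 wounds. IL23A, a subunit of IL-23 that sustains IL-17-producing cells, measured 5.43 and 6.47 FPKM in diabetic replicates 1 and 5 and at most 0.700 FPKM in any other wound.

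Both IL-17 receptor chains that passed the filter spread less between wounds. IL17RA, the chain shared by the family's receptors, measured 15.0, 16.7 and 22.0 FPKM in the lowest, median and highest diabetic wound and 12.7, 13.9, 13.8 and 16.0 FPKM in the non-diabetic wounds. Diabetic replicates 5 and 1 were again the highest, the groups overlapped, and the log2 fold change was 0.29 with a standard error of 0.11 (limma-adjusted p = 0.182). IL17RC had 19.5 ± 4.22 and 16.8 ± 2.60 FPKM (log2 fold change 0.20, limma-adjusted p = 0.606).

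In the IL-6 family, ligands and receptors again differed in spread. IL11, a ligand linked to fibroblast responses, was highest in diabetic replicates 5 and 1 (11.7 and 9.04 FPKM) and measured 0.552 to 7.16 FPKM in the other 9 wounds (log2 fold change 0.01, limma). Its receptor IL11RA spanned 17.1 to 38.5 FPKM with diabetes and 16.4 to 33.7 FPKM without (log2 fold change 0.03, limma-adjusted p = 0.960). The shared signalling chain IL6ST had 16.3 ± 4.36 and 17.0 ± 2.82 FPKM (log2 fold change -0.09, limma-adjusted p = 0.849), and the IL-6 binding chain IL6R 1.56 ± 0.335 and 1.67 ± 0.516 FPKM (log2 fold change -0.07, limma-adjusted p = 0.872). For IL6ST and IL6R the 95% intervals reached from -0.48 to 0.31 and from -0.43 to 0.29.

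Lymphocyte receptors were low to moderate. IL2RG, the chain shared by the receptors of IL-2, IL-4, IL-7, IL-9, IL-15 and IL-21, measured 8.52, 9.57 and 14.4 FPKM in the lowest, median and highest diabetic wound and 6.42, 7.30, 7.69 and 9.51 FPKM in the non-diabetic wounds (log2 fold change 0.45 with a standard error of 0.16, limma-adjusted p = 0.160). Only non-diabetic replicate 4 reached into the diabetic range. IL12RB1, a chain of the IL-12 and IL-23 receptors, measured 0.345, 0.588 and 0.980 FPKM in the lowest, median and highest diabetic wound and 0.229, 0.206, 0.269 and 0.377 FPKM in the others (log2 fold change 0.50). It overlapped only between diabetic replicate 6 and non-diabetic replicate 4. It passed the filter through 4 diabetic wounds and 0 non-diabetic ones, so that its difference is given here without a test. Summed T and NK cell markers were 37.1 to 67.3 FPKM with diabetes and 34.1 to 43.7 FPKM without, with 0 of 11 called, and their part in these values was not tested.

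IL13RA1, which binds IL-13 together with IL4R, had the lowest log2 fold change of the receptors. It measured 38.7, 44.6, 22.4, 16.6, 14.7, 16.8 and 15.4 FPKM in diabetic replicates 1 to 7 and 24.8, 29.0, 42.7 and 40.1 FPKM in the non-diabetic wounds. Diabetic replicates 1 and 2 reached the upper non-diabetic values and the other 5 lay below the whole non-diabetic range. The log2 fold change was -0.59 with a standard error of 0.32 (limma-adjusted p = 0.364), and it was called lower only with estimated library weights (-0.85, adjusted p = 0.0480). Its partner IL4R spanned 19.9 to 55.6 FPKM with diabetes and 15.1 to 34.8 FPKM without (log2 fold change 0.37, limma-adjusted p = 0.546). IL4I1, an amino acid oxidase induced by IL-4 in myeloid and B cells, had 2.04 ± 0.431 and 1.63 ± 0.277 FPKM (log2 fold change 0.24, limma-adjusted p = 0.416).

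Some interleukin genes were lowest where keratinocyte markers were lowest. Diabetic replicate 4 and non-diabetic replicate 1, the wounds poor in those markers, were the 2 lowest of 11 in 9 of the 51 genes (IL1A, IL1R2, IL1RL2, IL9R, IL17B, IL20, IL20RA, IL20RB and IL22RA1), beside 10.8% of all genes tested. The genes were found by this ranking and not from a list of epidermal genes. IL22RA1, the chain that makes epithelium responsive to IL-22, measured 0.0661 FPKM in diabetic replicate 4 and 0.0978 FPKM in non-diabetic replicate 1 against 1.64 to 12.9 FPKM in the other 9 wounds. IL1RL2, the IL-36 receptor, measured 0.113 and 0.105 FPKM there and 1.65 to 7.06 FPKM elsewhere. IL20RA and IL20RB, which together form the receptor for IL-19, IL-20 and IL-24, measured 0.0507 and 0.325 FPKM in diabetic replicate 4 and 0.197 and 0.159 FPKM in non-diabetic replicate 1. None of these 4 receptors was called (limma, adjusted p = 0.505 to 0.997, 0 of them at an unadjusted p under 0.05), and each group held 1 such wound. What part the amount of epidermis had in their levels was not tested.

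Below the expression filter lay 28 genes, of which 15 were ligands and 7 were receptors. IL4 and IL1B2 had 0 reads in every wound, and IL2, IL9, IL21 and IL28B had at most 4 reads in any wound. At this depth a difference in these genes was not detectable. In 26 of the 28 with any read a two-sided test by exact permutation was run without adjustment, whose smallest possible p is 0.00303, and in 0 of them did the groups separate. IL15, a survival factor for NK and memory T cells, had the smallest p, 0.0242 by that exact test, with 45 to 113 reads in diabetic wounds and 11 to 69 in the others. IL26, with 2 to 36 reads against 0 to 7, had an exact p = 0.0515, and IL17REL, with 18 to 286 reads against 12 to 46, an exact p = 0.0576. As 26 genes were tested without adjustment, none of these is a call.

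Around the interleukin genes, 60 further genes of the same pathways passed the filter, of 71 listed. They comprised related ligands and receptors without an IL symbol, signal transducers, JAK and STAT genes, feedback inhibitors and inflammasome genes. CSF2RA, described above, was among the 2 called higher, and 0 of the 60 were called lower (limma, 9 of 60 at an unadjusted p under 0.05), beside 1.35%, 1.66% and 18.4% of all genes. CLCF1, a ligand of the IL-6 family, measured 1.41 to 2.79 against 1.12 to 1.40 FPKM (log2 fold change 0.48, limma-adjusted p = 0.106). GSDMD, the pore through which mature IL-1 beta leaves the cell, measured 31.3 to 45.0 against 29.8 to 30.6 FPKM (log2 fold change 0.38, limma-adjusted p = 0.0540). In both the groups did not overlap, for CLCF1 only narrowly, and neither passed the threshold. Groups without overlap were found in 4 of the 60 genes, beside 5.65% of all genes tested. The log2 fold change was positive in 38 of the 60, beside 52.3% of all genes. Among the 13 related ligands and receptors tested it was positive in 13, with a median of 0.48, and both called genes were among them. Over the 5 inflammasome genes tested the median was -0.23, with 2 positive.

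No transducer, JAK, STAT or feedback gene was called. Over the 16 genes downstream of the IL-1 receptors the median log2 fold change was 0.08, over the 11 JAK and STAT genes 0.008 and over the 12 feedback inhibitors -0.003 (limma, with an unadjusted p under 0.05 in IRAK2 and TOLLIP). STAT3, which carries the IL-6, IL-10 and IL-22 signals, had 31.9 ± 9.91 and 40.4 ± 8.07 FPKM (log2 fold change -0.37, limma-adjusted p = 0.426). Diabetic replicates 1 and 5 were the 2 highest wounds, in this ranking picked after the values were seen, in 13 of the 60 genes, beside 4.74% of all genes. They included CXCL8, LIF, OSM, CSF3, NFKBIA, SOCS1 and SOCS3. CXCL8, the neutrophil attractant also named IL-8, measured 90.6 and 88.6 FPKM in that pair and 1.51 to 18.6 FPKM in the other 9 wounds. SOCS3, a feedback inhibitor induced by IL-6, measured 64.9 and 79.4 FPKM there and 20.0 to 47.5 FPKM elsewhere. Both genes had log2 fold changes well within their spread (0.36 and 0.14, adjusted p = 0.909 and 0.887, limma).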

How the data were processed

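Total RNA of 11 wounds was sequenced as directional polyA libraries. Per the paper and the submitters' processing notes, the authors trimmed reads with fastp, aligned them to Sscrofa11.1 with HISAT2 2.2.1 and counted them with featureCounts 2.0.6 (StringTie 2.2.3 is also named), and deposited FPKM values. Their FPKM formula is not given in the sources used here. Multiplied by gene length, 100.0% of the deposited values were whole multiples of the value of 1 read (tolerance 0.05 reads), which gave the depths. FPKM are not counts, so log2(FPKM + 0.5) was compared with limma 3.58.1 (R 4.3.3, eBayes with trend) for the 13956 genes at FPKM 0.5 or more in at least 4 libraries, with Benjamini-Hochberg adjustment over all of them. Log2 fold changes on this scale understate changes of low genes. The wounds' groups came from the sample titles. Genes under the filter and ratios were compared by exact permutation over 330 splits. The genes, their roles and the lists were chosen with earlier results of these data known. Genes named with values were those called, with an unadjusted p under 0.05, the 5 most abundant, decoys and their counterparts, the extremes of each role and the 3 most variable. Every other gene or wound singled out was picked with its values already seen. The alternatives tried changed the pseudocount, filter, scaling, spread estimate, weights, covariates, replicate block and the wounds included, and voom on recovered reads. Leaving out diabetic replicates 1 and 5 together was added after seeing the data. Python 3.11.15, pandas 2.3.3, numpy 2.4.6 and matplotlib 3.10.9 were used. 1 pathway gene is not reported here.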

Additional observations from a re-analysis of the deposited data

How the results depend on the processing

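The number of interleukin genes called higher was 2 and lay between 1 and 3 when single wounds were left out. IL3RA remained called under 26 of 27 alternatives and IL17RD under 22. With the replicate block 0 were called higher (IL3RA 0.72, adjusted p = 0.182, and IL17RD 0.81, adjusted p = 0.187, limma), and 16 genes over all genes tested against 419 without it. The replicate numbers did not pair the wounds: deviations from the group means correlated at -0.27, 0.22, 0.07 and -0.48 for numbers 1 to 4. Without diabetic replicate 4 and non-diabetic replicate 1 together, IL17RD missed the threshold (0.71, adjusted p = 0.0587). The number called lower was 0 and became 1 with library weights (IL13RA1). IL18R1 was also called with eBayes without trend (adjusted p = 0.0459). The difference in the log2 ratio of IL1R2 to IL1R1 passed the threshold under 2 of 15 alternatives, both without diabetic replicate 4. Without that wound and non-diabetic replicate 1 together it was 1.37 (exact adjusted p = 0.0357). In both alternatives the groups separate once diabetic replicate 4 is gone, so each exact p is the smallest that the test can give. The difference ranged from 0.97 to 1.63 when single wounds were left out. Library weights gave 822 calls over all genes tested, against 209 to 273 without a single non-diabetic wound, 279 without diabetic replicate 3 and 212 without diabetic replicate 4 and non-diabetic replicate 1 together.

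Directions that changed belonged to genes that were never called. IL11RA was -0.040 with TPM scaling, -0.055 with quantile normalization, -0.0040 with the replicate block, and -0.15 to 0.18 without single wounds. IL17F was 0.035 with a pseudocount of 1, 0.10 with the replicate block, and -0.50 to 0.49 without single wounds. IL17RC was -0.0072 with the replicate block. IL17C ranged from -0.94 to 0.093, IL18 from -0.0014 to 0.21 and IL6 from -0.69 to 0.22 without single wounds. Without diabetic replicates 1 and 5 together, IL18 was -0.11, IL1B -0.59 and IL20 -0.68. The cause of these changes was not tested. The number of positive log2 fold changes among the 51 genes lay between 33 and 40 under the alternatives that kept all 51, with 33 under TPM scaling and without diabetic replicates 1 and 5 together. Depth limited the 28 genes under the filter, and 4 non-diabetic wounds of 1 animal limited every comparison.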
